A study of Mus musculus with 8 samples.

Results

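The transcripts described here encode proteins that detect foreign or misplaced nucleic acid inside the cell, with the adaptors that pass the signal on. The 10 genes were taken by name from the array annotation, out of 27240 genes on the array: the sensors and effectors Ddx58 (RIG-I), Ifih1 (MDA5), Dhx58 (LGP2), Ddx60, Tlr3, Zbp1, Eif2ak2 (PKR) and Adar (ADAR1), and the adaptors Mavs and Tmem173 (STING, now named Sting1). They were represented by 14 probes, with 2 probes each for Ddx58, Ifih1, Zbp1 and Adar.

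The samples were ovarian tumours of 8 female mice of the genotype C57BL/6JTgMISIIR-TAg, with 1 tumour and 1 one-colour Agilent array per mouse. All 8 mice, treated and control, carried the transgene, in which the receptor promoter of Müllerian inhibiting substance (type II, gene Amhr2) drives SV40 T antigen. Once tumours measured about 500 mm3, 4 mice received AZD1480, an inhibitor of the kinases JAK1 and JAK2, at 30 mg/kg, and 4 received the vehicle alone (0.5% hypermellose and 0.1% Tween 80). Tissue was collected after 6 h, and the labels do not give the age of the mice. Since the tumours were profiled in bulk, fewer cells of a type and less RNA per cell cannot be told apart.

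RIG-I and MDA5 are helicases that bind viral or misplaced double-stranded RNA in the cytosol and then engage Mavs on the mitochondrial surface, which activates the kinases and interferon regulatory factors that switch on type I interferon genes. STING does the same for cytosolic DNA, after the enzyme cGAS has made a cyclic dinucleotide. Interferon then signals through JAK kinases and STAT proteins, and many of the sensors are themselves interferon-induced genes, whereas Mavs is regarded as present without induction. The comparison asked how sensor and adaptor transcripts stood shortly after JAK inhibition, and whether the inducible sensors differed from the adaptors.

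Because most of the sensors are known interferon targets, their promoters were searched for sequences that interferon-activated factors can bind. Windows of 300 bases from RefSeq (GRCm38.p6), from 250 before to 50 after the start, were used for 7 of the 10 genes, with 9 start sites in all. No window of Dhx58, Zbp1 or Tmem173 was used, so nothing is said here about motifs in those promoters. The core of the interferon-stimulated response element, read as GAAA, any 2 bases and GAAA on either strand, was present for Ddx58, Ifih1, Eif2ak2 and Ddx60, that is 4 of the 7, and in 3.44% of all 32851 promoters. The gamma-activated site, read as TTC, any 3 bases and GAA on either strand, was present for Eif2ak2 and at the third of 3 start sites of Adar, against 8.3% of all promoters. Here the members are counted per gene, over all its start sites, and the shares of all promoters are counted per window. Neither motif was found for the sensor Tlr3, at start sites 1 and 2 of Adar, or for the adaptor Mavs. Shown are the windows of 3 sensors with the response element core, of Adar at start site 3, and of Mavs. They lie at chr4:40239776-40240075 for Ddx58, chr2:62646206-62646505 for Ifih1 and chr17:78882523-78882822 for Eif2ak2, all on the minus strand, and at chr3:89730468-89730767 for Adar and chr2:131233813-131234112 for Mavs, both on the plus strand. Each is written 5′ to 3′ along the gene's own strand, with the motif matches in capitals.
Ddx58: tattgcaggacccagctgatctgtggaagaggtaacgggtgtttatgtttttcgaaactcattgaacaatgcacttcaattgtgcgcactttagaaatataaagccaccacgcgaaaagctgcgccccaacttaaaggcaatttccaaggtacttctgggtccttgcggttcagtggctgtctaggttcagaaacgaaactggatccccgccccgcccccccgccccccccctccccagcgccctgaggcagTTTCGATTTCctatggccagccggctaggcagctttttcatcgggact
Ifih1: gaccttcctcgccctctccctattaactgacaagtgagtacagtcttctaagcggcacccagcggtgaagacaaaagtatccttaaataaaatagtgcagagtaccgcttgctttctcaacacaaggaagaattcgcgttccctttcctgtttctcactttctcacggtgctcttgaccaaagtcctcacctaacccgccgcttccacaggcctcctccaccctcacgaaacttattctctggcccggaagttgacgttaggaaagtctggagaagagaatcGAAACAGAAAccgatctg
Eif2ak2: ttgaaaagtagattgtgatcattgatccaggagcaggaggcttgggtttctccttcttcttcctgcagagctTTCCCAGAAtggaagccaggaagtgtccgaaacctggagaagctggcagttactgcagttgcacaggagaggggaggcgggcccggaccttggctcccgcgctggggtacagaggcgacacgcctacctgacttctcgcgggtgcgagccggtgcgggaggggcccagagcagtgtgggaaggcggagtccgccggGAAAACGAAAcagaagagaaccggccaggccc
Adar: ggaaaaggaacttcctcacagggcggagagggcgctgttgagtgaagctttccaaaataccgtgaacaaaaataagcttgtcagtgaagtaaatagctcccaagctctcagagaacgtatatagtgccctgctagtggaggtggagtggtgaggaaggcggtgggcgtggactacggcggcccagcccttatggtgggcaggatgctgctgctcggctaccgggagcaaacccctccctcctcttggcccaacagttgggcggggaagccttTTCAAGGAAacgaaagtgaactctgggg
Mavs: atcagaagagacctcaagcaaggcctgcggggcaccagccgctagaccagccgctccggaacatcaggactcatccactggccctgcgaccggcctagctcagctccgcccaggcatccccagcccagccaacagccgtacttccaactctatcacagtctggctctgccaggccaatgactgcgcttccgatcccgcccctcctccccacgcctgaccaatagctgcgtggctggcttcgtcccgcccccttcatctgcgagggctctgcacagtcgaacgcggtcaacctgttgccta
In Ddx58 the capitals mark the core read on the opposite strand, 3 to 12 bases after the start. The core lay 33 to 42 bases after the start in Ifih1 and 19 to 28 bases after it in Eif2ak2. Further upstream, the first capitals in Eif2ak2 mark the gamma-activated site, and the capitals in Adar mark the same kind of site. Ddx60, whose window is not shown, held the core at 2 places upstream of its start. These matches describe the letters of the windows and do not show that a factor binds there.

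Of the 10 genes, 9 were measured, and each of these was well above background on all 8 arrays and saturated on 0, so the filter on dim probes did not select them by group. Values are given on a log2 scale relative to the 75th percentile of the array, so that 0 is the brightness of that percentile. Levels of different genes cannot be compared, because each probe binds with its own efficiency. The 75th percentile itself was 4706 to 5795 intensity units on slide 1, with replicates 1 and 2 of both groups, and 1587 to 2783 on slide 2, with replicates 3 and 4. Arrays correlated with each other at 0.871 to 0.988 across genes. All 14 of the listed markers of ovarian epithelial tumours were measured, among them Krt8, Epcam, Wt1 and Amhr2, the source of the transgene's promoter. The 4 arrays per group limit the precision.

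Every one of the 7 measured sensors had a lower mean in the AZD1480 tumours, with a median log2 difference of -1.13, while the 2 adaptors did not separate the groups. In 6 of the 7 sensors all AZD1480 arrays lay below all vehicle arrays, an arrangement found in 1.41% of the 19778 genes tested, and in 0 of the 9 members all AZD1480 arrays lay above all vehicle arrays (1.21% of all genes). None of the 9 passed the test across all genes: limma called 0 members and 0 of all genes (0%) after Benjamini-Hochberg adjustment, with a smallest adjusted p over all genes of 0.647. By limma's unadjusted p, 6 of the 9 lay below 0.05 in the lower direction, against 1.74% of all genes, and 0 in the higher direction, against 1.72%. Negative differences were found for 8 of the 9 members and 43.5% of all genes, and the median difference over all genes was 0.045. At least 2-fold lower were 5 of the 9, against 5.23% of all genes. Adjusted p by limma was 0.827 for Adar, 0.976 for Mavs and 0.974 for the other 7, so each difference below is described with its unadjusted and its exact permutation p, and none is a call.

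**Figure D1:**
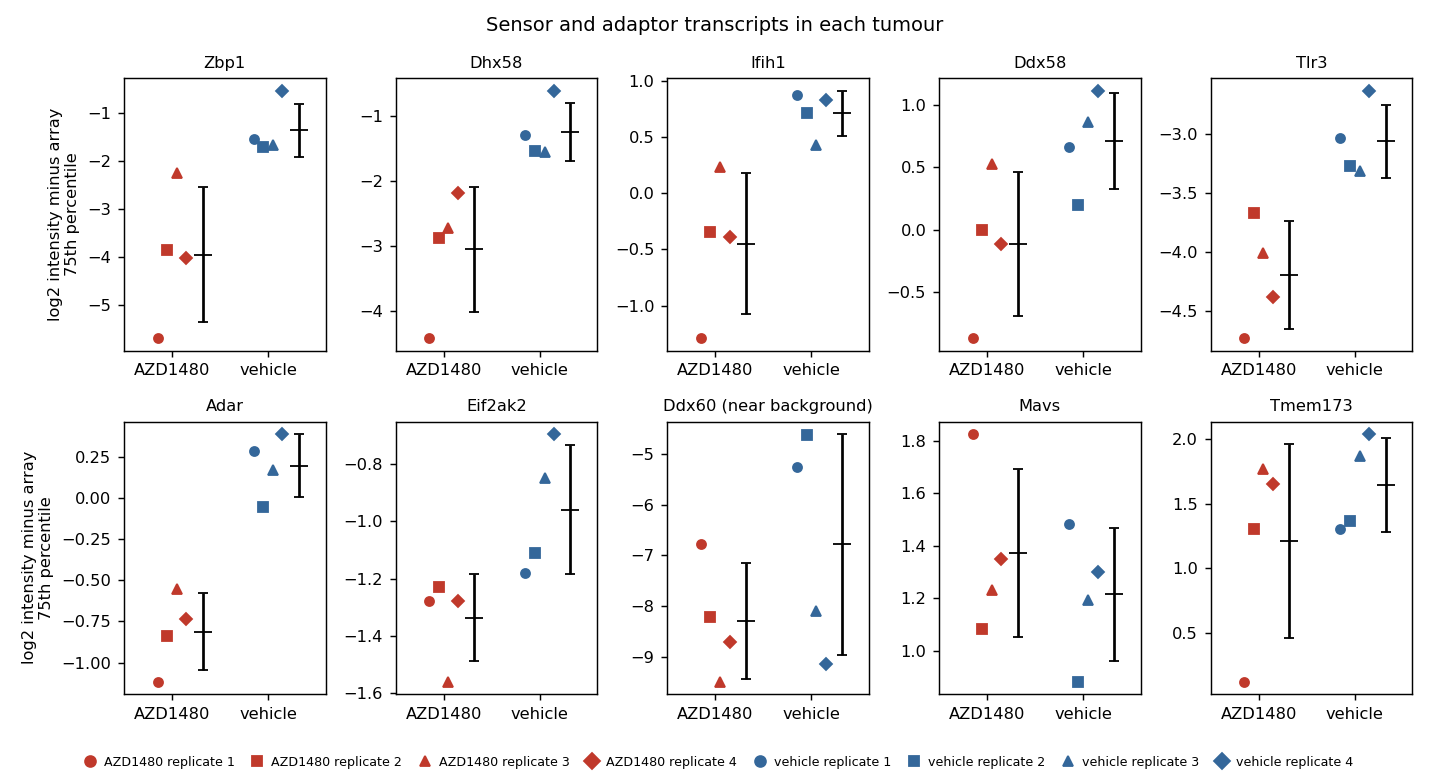
Each panel plots 1 gene's log2 intensity relative to the array's 75th percentile for the 4 AZD1480 arrays (red, left) and the 4 vehicle arrays (blue, right), with the marker shape giving the replicate and bars giving the mean ± SD. The groups separate for Zbp1, Dhx58, Ifih1, Tlr3, Adar and Eif2ak2, overlap for Ddx58, Mavs and Tmem173, and cannot be read for Ddx60, which was near background.

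Among the RIG-I-like receptors, Dhx58 had the widest difference. Dhx58 encodes LGP2, which binds RNA like its relatives but lacks their signalling domain and modulates them, and its probe lies at chr11:100556271-100556330 on the mm9 build. Its values were -4.43, -2.89, -2.73 and -2.18 in AZD1480 replicates 1 to 4, against -1.29, -1.54, -1.56 and -0.61 in the vehicle tumours. The groups did not overlap, replicate 1 was the lowest AZD1480 tumour, and the gap between the highest AZD1480 and the lowest vehicle tumour was 0.63. The mean was -3.06 ± 0.96 with AZD1480 and -1.25 ± 0.44 with vehicle (SD, n = 4 each), a difference of -1.81 ± 0.48 (moderated SE from limma), or 3.51-fold lower. Its unadjusted limma p was 0.00561 and its two-sided exact permutation p 0.0286, the smallest that the 70 ways of drawing 4 of 8 arrays allow.

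Ifih1, the sensor of long double-stranded RNA, was read by a probe at chr2:62435507-62435566 (mm9). It stood at -1.29, -0.34, 0.23 and -0.39 in the AZD1480 tumours and at 0.87, 0.72, 0.43 and 0.83 in the vehicle tumours. All AZD1480 values were below all vehicle values, although AZD1480 replicate 3 came within 0.20 of the lowest vehicle tumour. The difference of means was -1.16 ± 0.31, or 2.23-fold lower, with an unadjusted limma p of 0.00628 and an exact permutation p of 0.0286. On slide 1 alone it was -1.61 and on slide 2 alone -0.71. A second, dimmer probe, well above background on 3 of 4 AZD1480 and 4 of 4 vehicle arrays, gave -1.18 and likewise did not overlap.

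Ddx58, which recognises short double-stranded RNA with a 5′ triphosphate, was the only measured sensor whose groups overlapped on the brighter probe (chr4:40151893-40151952, mm9). Values were -0.87, -0.00012, 0.52 and -0.11 with AZD1480 and 0.66, 0.20, 0.86 and 1.11 with vehicle. AZD1480 replicate 3 lay above vehicle replicate 2, and the other 3 AZD1480 tumours lay below all vehicle tumours. The log2 difference was -0.82 ± 0.33, with an unadjusted limma p of 0.0363 and an exact permutation p of 0.0571. The second probe of Ddx58 gave nearly the same difference, -0.83, and there the groups did not overlap, with AZD1480 values of -3.99, -2.51, -2.55 and -2.74 against -1.99, -2.38, -2.24 and -1.88 for vehicle.

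Ddx60, a helicase related to the receptors and reported to assist RIG-I, was well above background on 1 AZD1480 array and 2 vehicle arrays and was therefore not tested. Its values were -6.78, -8.22, -9.49 and -8.70 with AZD1480 and -5.26, -4.63, -8.09 and -9.15 with vehicle. The brightest values in both groups were those of slide 1, the groups overlapped, and no fold is given.

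Zbp1 had the widest difference of all the sensors. It encodes a sensor of nucleic acid in the Z conformation, DNA or RNA, which can start necroptosis, and its brighter probe lies at chr2:173039307-173039366 (mm9). Readings were -5.69, -3.84, -2.25 and -4.02 in the AZD1480 tumours, against -1.54, -1.71, -1.66 and -0.54 in the vehicle tumours. The AZD1480 tumours were widely spread, over a range of 3.44 against 1.17 for vehicle, yet the highest of them, replicate 3, still lay 0.54 below the lowest vehicle tumour. The difference was -2.59 ± 0.67, or 6.02-fold lower, with an unadjusted limma p of 0.00506 and an exact permutation p of 0.0286. A second probe gave -9.32, -5.13, -4.30 and -4.84 with AZD1480 and -2.11, -2.75, -2.74 and -2.04 with vehicle, a difference of -3.49 with no overlap. On that probe 3 of 4 AZD1480 arrays and 4 of 4 vehicle arrays were well above background.

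Tlr3, the receptor for double-stranded RNA in endosomes, was read at chr8:46481729-46481788 (mm9). It stood at -4.73, -3.68, -4.01 and -4.38 with AZD1480, against -3.04, -3.27, -3.32 and -2.64 with vehicle. The groups were separated by 0.36, with ranges of 1.06 in AZD1480 and 0.68 in vehicle tumours. This gave a difference of -1.13 ± 0.27, or 2.19-fold lower, an unadjusted limma p of 0.00315 and an exact permutation p of 0.0286.

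Adar had the smallest unadjusted p of the members and ranked 11 among all genes tested. ADAR1 edits adenosine to inosine in double-stranded RNA and thereby keeps the cell's own RNA from activating MDA5 and PKR. Its brighter probe, at chr3:89555266-89555325 (mm9), read -1.11, -0.84, -0.55 and -0.74 in AZD1480 tumours, against 0.28, -0.06, 0.17 and 0.39 in vehicle tumours. The groups were tight, with SDs of 0.23 and 0.19, and lay 0.50 apart. The difference was -1.01 ± 0.18, or 2.01-fold lower, with an unadjusted limma p of 0.000532, an adjusted p of 0.827 and an exact permutation p of 0.0286. A second Adar probe was less clear, at -3.18, -1.48, -1.22 and -0.74 with AZD1480 against -0.83, -1.08, -0.79 and -0.51 with vehicle. There AZD1480 replicate 4 lay among the vehicle tumours, and the difference of -0.85 had an exact permutation p of 0.114.

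Eif2ak2, the kinase PKR, which binds double-stranded RNA and halts translation by phosphorylating eIF2α, had the smallest difference among the sensors. Its probe (chr17:79252168-79252227, mm9) read -1.28, -1.23, -1.56 and -1.28 with AZD1480 and -1.18, -1.11, -0.85 and -0.70 with vehicle. The groups only just failed to overlap, since AZD1480 replicate 2 and vehicle replicate 1 were 0.048 apart. The difference of -0.38 ± 0.17, or 1.30-fold lower, had a 95% interval of -0.77 to 0.015, an unadjusted limma p of 0.0572 and an exact permutation p of 0.0286. It was -0.11 within slide 1 and -0.65 within slide 2.

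The adaptors gave another picture. Mavs, to which RIG-I and MDA5 bind, was read at chr2:131073675-131073734 (mm9), with values of 1.83, 1.08, 1.23 and 1.35 for AZD1480 and 1.48, 0.88, 1.19 and 1.30 for vehicle. The tumours of both groups were intermixed, with AZD1480 replicate 1 the highest of all 8 and vehicle replicate 2 the lowest. The log2 difference of 0.16 ± 0.22 had a 95% interval of -0.34 to 0.66 and an exact permutation p of 0.514. Without AZD1480 replicate 1 it was 0.0070. The interval leaves room for a change of either sign but not for one as large as the differences of Zbp1 or Dhx58.

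Tmem173, the adaptor of DNA sensing, read 0.12, 1.30, 1.77 and 1.65 with AZD1480 and 1.31, 1.36, 1.87 and 2.04 with vehicle. AZD1480 replicate 1 stood far below the other tumours, and the other 3 lay in or at the edge of the vehicle range. Its difference of -0.43 ± 0.39 had a 95% interval of -1.33 to 0.46 and an exact permutation p of 0.4. Without AZD1480 replicate 1 the difference was -0.07, so the mean rests on that tumour, and the wide interval does not show that Tmem173 was unaltered.

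**Figure D2:**
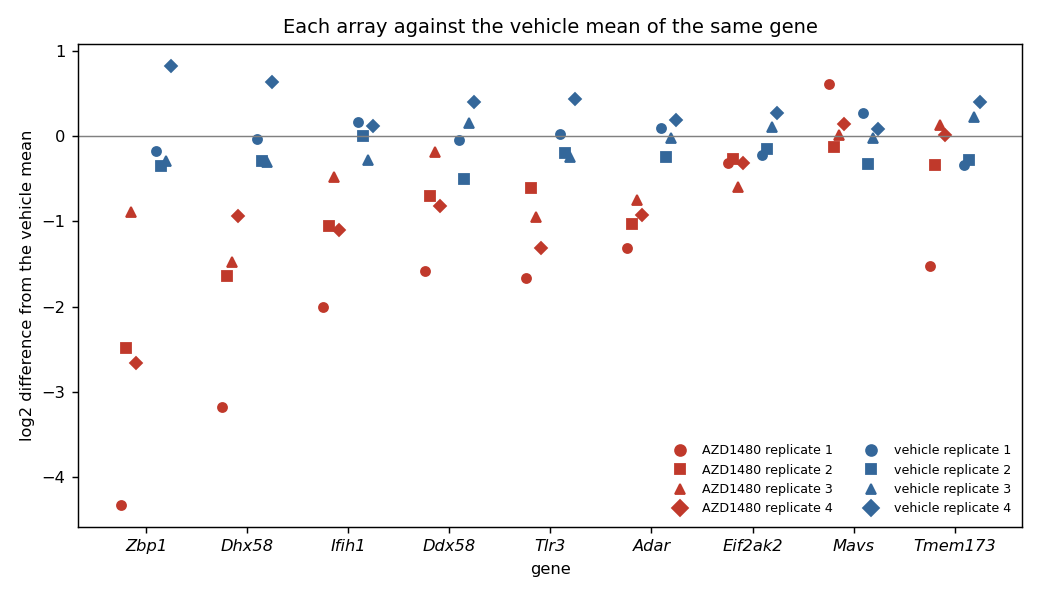
The vertical axis is the log2 value of each array minus the vehicle mean of the same gene, for the 7 measured sensors and, at the right, the 2 adaptors, with AZD1480 in red and vehicle in blue and the marker shape giving the replicate. AZD1480 replicate 1 (red circles) lies lowest for most sensors and for Tmem173 but highest for Mavs, and the red points of Zbp1 and Dhx58 lie farthest below 0.

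The tumours differed in how low their sensors were. The median over the 7 measured sensors, each relative to its vehicle mean, was -1.66, -1.04, -0.75 and -0.94 in AZD1480 replicates 1 to 4, against -0.038, -0.25, -0.25 and 0.40 in the vehicle tumours. AZD1480 replicate 1 had the lowest value of all 8 arrays for 7 of the 9 members, the exceptions being Eif2ak2 and Mavs. AZD1480 replicate 3 was the highest of its group for 4 sensors (Zbp1, Ifih1, Ddx58 and Adar), and vehicle replicate 4 was the highest of its group for 6 of the 7. The shares of all genes for which these arrays were lowest or highest were not counted, so these counts are not particular to the members. Without AZD1480 replicate 1 the differences were -2.01 for Zbp1, -1.35 for Dhx58, -0.96 for Tlr3, -0.91 for Adar, -0.88 for Ifih1, -0.57 for Ddx58 and -0.40 for Eif2ak2. The sign of every sensor was thus the same without that tumour.

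Within slides the sensors were negative on both. On slide 1, with 2 arrays per group, differences were -3.14 for Zbp1, -2.25 for Dhx58, -1.09 for Adar, -1.05 for Tlr3 and -0.87 for Ddx58. On slide 2, also with 2 arrays per group, Zbp1 was at -2.04, Dhx58 at -1.37, Adar at -0.92, Tlr3 at -1.22 and Ddx58 at -0.78. Sensors were more negative on slide 1 in 5 of 7 cases, Tlr3 and Eif2ak2 being the others. The test of that difference itself, limma's interaction of treatment and slide, called 0 members and 0 genes (0%) after adjustment, with 296 genes (1.5%) at an unadjusted p below 0.05 and no member among them. The smallest unadjusted interaction p among the members was 0.105, for Eif2ak2.

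The sensors were then compared with each adaptor on the same array, by subtracting the adaptor's log2 value before the fit. Relative to Mavs, Zbp1 stood at -7.51, -4.93, -3.48 and -5.37 with AZD1480, against -3.02, -2.59, -2.85 and -1.84 with vehicle. The groups did not overlap, and the difference was -2.75 ± 0.76 (exact permutation p = 0.0286). For Adar relative to Mavs, the values were -2.94, -1.92, -1.78 and -2.09 with AZD1480, against -1.20, -0.94, -1.02 and -0.91 with vehicle, again without overlap and with a difference of -1.16 ± 0.29 (exact permutation p = 0.0286). Dhx58 (-1.97), Ifih1 (-1.32) and Tlr3 (-1.29) also did not overlap. The share of all genes whose groups separate after subtracting either adaptor was not counted. Ddx58 (-0.98) and Eif2ak2 (-0.54) overlapped, with exact permutation p of 0.0571 and 0.0857. In all, limma gave an unadjusted p below 0.05 in the lower direction for 6 of the 7 sensors relative to Mavs, against 1.72% of 19777 genes, and called 0 of them (0% of all genes) after adjustment. Within slide 1 alone the count was 3 of the 7, against 2.75% of all genes.

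Set against Tmem173, fewer sensors separated with all 8 arrays. Unadjusted limma p lay below 0.05 for 2 of the 7 sensors, Zbp1 (-2.16 ± 0.49) and Dhx58 (-1.38 ± 0.40), against 0.693% of all genes, and 0 sensors and 0% of all genes were called after adjustment. Relative to Tmem173, Dhx58 stood at -4.55, -4.19, -4.50 and -3.84 with AZD1480 and at -2.59, -2.90, -3.43 and -2.65 with vehicle, so that every AZD1480 tumour was below every vehicle tumour (exact permutation p = 0.0286). For Ifih1 (-0.73), Tlr3 (-0.70), Adar (-0.57) and Ddx58 (-0.39) the groups overlapped, with exact permutation p of 0.0571 to 0.114. Eif2ak2 did not differ from Tmem173 beyond its spread, at 0.056 ± 0.47. Relative to Tmem173 it read -1.40, -2.53, -3.33 and -2.93 with AZD1480, against -2.49, -2.47, -2.72 and -2.73 with vehicle, and AZD1480 replicate 1 was the highest of all 8. Without AZD1480 replicate 1, where Tmem173 itself was low, 5 of the 7 sensors lay below an unadjusted limma p of 0.05 relative to it, against 1.14% of all genes in that fit, and Eif2ak2 was at -0.33. With slide as a covariate the count was 4 of the 7, with Ifih1 and Tlr3 added, against 0.834% of all genes. The 2 adaptors differed from each other by 0.59 ± 0.55 (Mavs over Tmem173, exact permutation p = 0.429).

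**Figure D3:**
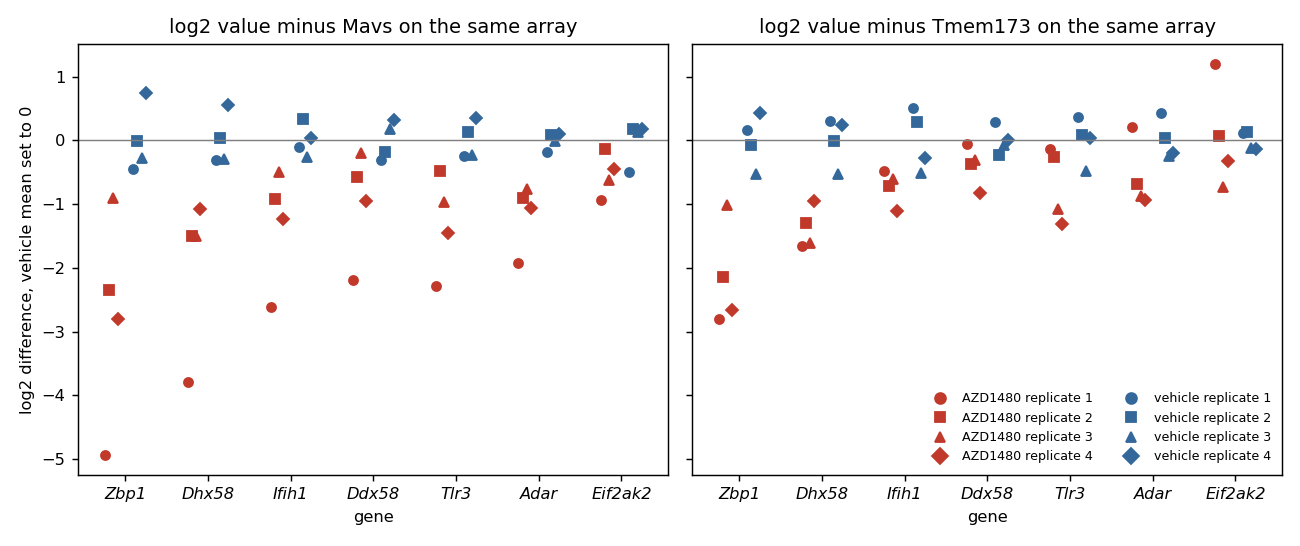
Log2 values of the 7 measured sensors minus Mavs (left panel) or Tmem173 (right panel) on the same array, with the vehicle mean set to 0, for AZD1480 arrays in red and vehicle arrays in blue. Relative to Mavs the red points lie below the blue ones for 5 sensors, whereas relative to Tmem173 they do so for Zbp1 and Dhx58. The share of all genes that separate in this way was not counted.

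The profiles of the genes over the 8 arrays, each centred on its own mean, were set side by side by their root-mean-square distance in log2 units. Nearest to each other among the members were Tlr3 and Adar, at 0.27, then Ddx58 and Adar, at 0.28, and Ifih1 and Adar, at 0.29. The farthest pair was Zbp1 and Mavs, at 1.74. Eif2ak2 was about as near to Adar (0.40) as to Mavs (0.39), and Tmem173 was nearest to Ddx58 (0.31). The distance is not scaled for size, so 2 genes with small differences lie close even where their signs differ. Among all other genes, Ddx58 was most like Dtx3l (0.16), Bin2, C4b, Ly86 and Tomm20l, where the median gene was 0.75 away. Ifih1 was most like Sp100 (0.15), B2m, Irf9, Gbp9 and Slc28a2, and Zbp1 was most like Irf7 (0.37), Ifit3b, Oas1f, Apol9a and Apol9b. Mavs was most like Bag6 (0.068), Tmcc1, Sphk2, Fmnl3 and Rnf19b, all with differences between 0.03 and 0.23.

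Other genes of the pathway were counted by role. Over all genes tested, 43.5% were lower, 1.74% were lower at an unadjusted limma p below 0.05, and the median difference was 0.045. Of 25 measured signalling partners of Mavs and Sting, a list that also holds the RIG-I activators Trim25 and Rnf135, 12 were lower and 13 higher, with a median difference of 0.0072. Unadjusted limma p below 0.05 was reached by 2 of them, both lower and both non-overlapping: Trim25, a ubiquitin ligase that activates RIG-I, at -0.71 ± 0.16, and Irf7, the inducible interferon regulatory factor, at -2.38 ± 0.72. The kinase Tbk1 (-0.12 ± 0.15) and the factor Irf3 (0.06 ± 0.13), which relay the signal of both adaptors, differed by less than their spread. Among 29 measured regulators of RNA sensing, 14 were lower and 15 higher, the median was 0.00079, and 1 had an unadjusted p below 0.05, Nlrc5 (-2.20 ± 0.53), best known as an activator of MHC class I genes. None of these genes passed after adjustment over all genes.

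Of 16 measured other nucleic acid sensors, 12 were lower, against 43.5% of all genes, and 4 higher, with a median of -0.69. Their 4 members with an unadjusted limma p below 0.05 were all lower, against 1.74% of all genes, and none passed after adjustment. Among them were Ifit3 (-2.61 ± 0.66), a partner of RNA-binding Ifit proteins, and Oas2 (-2.93 ± 0.92) and Oas1a (-2.77 ± 0.91), synthetases that sense double-stranded RNA. Oas2 was at -1.93, Oas1a at -1.79 and Ifit3 at -1.91 without AZD1480 replicate 1. The DNA sensor cGAS (Cgas) was at -0.20 ± 0.21. The list thus held wide differences for OAS and IFIT genes beside small ones for Cgas.

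The 19 measured partners of Zbp1, Eif2ak2 and Adar and removers of self nucleic acid were 9 lower and 10 higher, with a median of 0.013 and 0 at an unadjusted limma p below 0.05. Ripk3, the kinase that Zbp1 engages in necroptosis, was at -0.31 ± 0.64 (0.37 without AZD1480 replicate 1), and its substrate Mlkl was at -0.096 ± 0.45 (-0.47 without it). Adarb1, a second editing enzyme, read -2.03, 0.79, 0.99 and 0.70 with AZD1480 and 0.70, 0.77, 0.88 and 1.02 with vehicle, so only AZD1480 replicate 1 stood apart. Trex1, an exonuclease that removes cytosolic DNA, was at -0.21 ± 0.14. General DEAD/DEAH-box helicases, relatives of the sensors with roles in RNA metabolism, were 16 lower and 28 higher of 44, with a median of 0.048 and 0 at an unadjusted limma p below 0.05. Dhx9 among them was at 0.22 ± 0.28.

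Interferons and receptor chains, with the signalling proteins behind them, were 8 lower and 5 higher of 13 measured, with a median of -0.10. Irf9 (-1.13 ± 0.27) and Stat2 (-0.53 ± 0.21), which belong to the complex that binds the interferon-stimulated response element, had unadjusted limma p of 0.00332 and 0.0324 and did not pass after adjustment. For Irf9 all AZD1480 tumours lay below all vehicle tumours. The interferon genes Ifnb1, Ifna4 and Ifng were not measured, being well above background on at most 1 of the 8 arrays. Of the interferon genes that were measured, Ifna2 was at 0.34 and Ifnl3 at 0.30. Neither had an unadjusted limma p below 0.05.

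**Figure D4:**
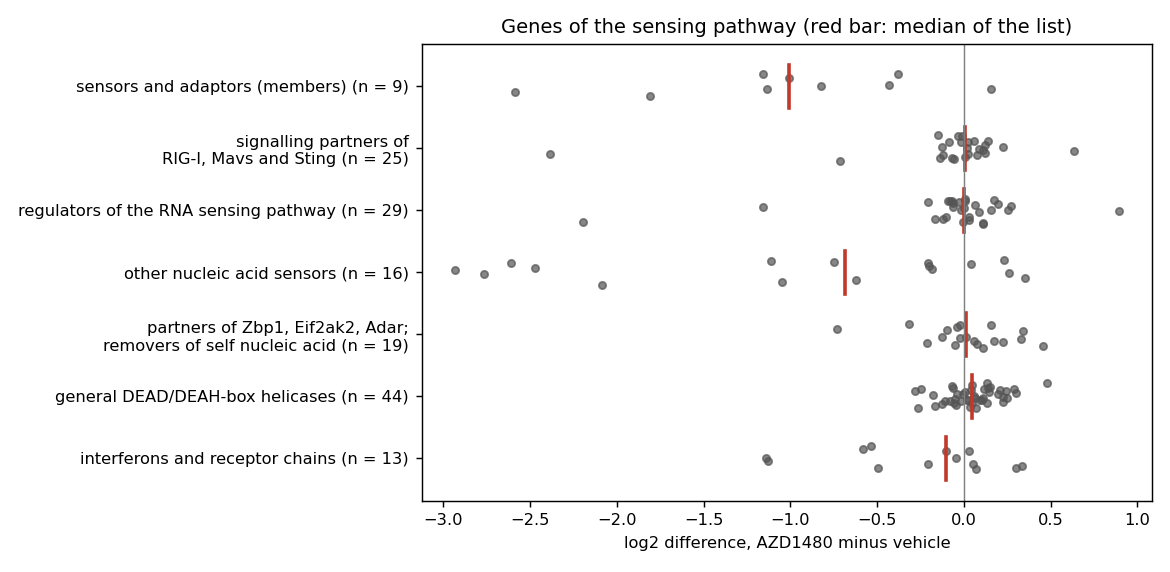
Each point is 1 measured gene's log2 difference, AZD1480 minus vehicle, by role, and the red bar is the median of the list. The medians of the members and of the other nucleic acid sensors lie at -1.01 and -0.69, and those of the other lists lie between -0.10 and 0.05.

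Levels of cell type markers were set beside those of the members, and their part in the members' differences was not tested. Over all genes tested, 43.5% were lower, 1.74% were lower at an unadjusted limma p below 0.05, and 1.41% were lower without overlap. Of 17 measured macrophage and monocyte markers, 16 were lower with AZD1480, with a median of -0.54. Their summed level, in multiples of the 75th percentile, was 18.7 to 74.5 in AZD1480 and 44.7 to 52.9 in vehicle tumours, with AZD1480 replicate 1 the lowest. Such a sum weights bright probes most, and Itgam alone made up 8.55% to 61.4% of it with AZD1480 and 14.0% to 29.2% with vehicle. Without Itgam it was 11.6 to 45.7 with AZD1480 and 31.7 to 44.9 with vehicle. Below an unadjusted limma p of 0.05 were 3 of the 17, all lower: Fcgr3 (-0.92 ± 0.24) and Fcgr1 (-1.39 ± 0.50), which bind antibody and did not overlap between the groups, and the mannose receptor Mrc1 (-1.04 ± 0.31). Fcgr3 was at -0.81, Fcgr1 at -0.92 and Mrc1 at -0.97 without AZD1480 replicate 1. Cd163 and Ly6c2 were not measured. Without AZD1480 replicate 1 the macrophage median was -0.13, whereas the median of the 9 members was -0.88. On slide 2 the macrophage median was -0.17 and that of the members -0.78. Ciliated cell markers were lower for 7 of 7 genes, with a median of -1.42, and -0.02 without AZD1480 replicate 1. Their summed level was 1.07 to 41.0 with AZD1480 and 34.0 to 55.3 with vehicle. Epithelial tumour markers were lower for 13 of 14, with a median of -0.47, and -0.33 without AZD1480 replicate 1, and 1 of them, Wfdc2 (-1.31 ± 0.51), had an unadjusted limma p below 0.05. The 9 measured endothelial markers had a median of -0.20, and -0.27 without AZD1480 replicate 1. Of these 9, 2 lay below that p, Vwf (-1.12 ± 0.33) and Lyve1 (-1.17 ± 0.37). The other 6 marker lists, with 0 genes below that p, had medians between -0.49 (T and NK cells) and 0.20 (dendritic cells). These medians, leaving out AZD1480 replicate 1, were -1.55 for granulosa and luteal cells (-0.44 with it), -0.45 for neutrophils (0.12 with it), -0.095 for T and NK cells, -0.080 for B and plasma cells (-0.32 with it), 0.17 for fibroblasts and stroma (-0.25 with it) and 0.24 for dendritic cells.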

How the data were processed

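Total RNA from 8 tumours was labelled with Cy3 and hybridised to one-colour Agilent mouse arrays, 1 per mouse. Per the submitters' processing notes, Agilent Feature Extraction 9.5.3 was used. Per the file headers, the deposited intensity is background-subtracted and detrended within the array, and probe coordinates are on mm9. The authors also deposited a value table on a log2 scale, whose columns share a median of 8.36. It correlated at 0.996 to 1.000 with the log2 raw intensity and served as an alternative only. The sources used here do not say how its offset was set.

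Each array had 43020 spots that are not controls, and 66.9% to 76.4% of spots were well above background. Log2 intensity minus the array's 75th percentile was averaged over the spots of a probe, without flagged spots. Probes well above background on at least 4 of 8 arrays were kept (28338), and a gene took its brightest kept probe, which gave 19778 genes. Groups came from the labels and replicates are separate mice. The two-sided test was that of limma 3.58.1 under R 4.3.3 (eBayes after lmFit), with Benjamini-Hochberg adjustment over all genes and a threshold of 0.05, and, per member, with an exact permutation test. On simulated data of 19778 genes the same fit recovered 19% of log2 changes of size 1 and 59% of size 2. It also called 7 unchanged genes. The simulated noise was drawn independently for each gene and array. Real genes can share the deviation of an array, so these rates need not hold for the tumours.

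The 2 slides, scanned separately, served as batches. Members and lists were chosen with earlier results of these data known. All members are named. Of the lists, genes at an unadjusted p below 0.05, at most 4 a list, are named, plus genes chosen by role (some are not reported here), and the 5 nearest profiles are named for Ddx58, Ifih1, Zbp1 and Mavs. Same-numbered samples of both groups had deviations from their group means correlated at 0.36, 0.36, 0.13 and -0.06, so the numbers were not taken as pairs. Alternatives covered background correction, scaling, filters, probe choice, slide, array weights, the deposited table and leaving out each array.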

Additional observations from a re-analysis of the deposited data

Results flagged for a closer look

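Of 18 groups of 4 arrays, 1 for each measured gene and treatment, 2 held an array far from the others, where chance flags about 1 in 20 groups. For Eif2ak2 in AZD1480 tumours, replicate 3 was at -1.56, and its gap to the nearest other array was 0.848 of the group's range. For Zbp1 in vehicle tumours, replicate 4 was at -0.54, with a gap of 0.852 of the range.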

How the results depend on the processing

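Over 20 alternatives the 9 measured members gave 180 differences, and 179 had the sign of the main value. The exception was Mavs, at -0.0017 with array weights. Calls over all genes were 0 under each alternative, for members and for all genes. Members lower with AZD1480 numbered 8 to 9. Those lower at an unadjusted limma p below 0.05 numbered 4 to 7. They were 4 within each slide, against 3% of all genes on slide 1 and 1.73% on slide 2. With array weights they were 7, against 2.43% of all genes. Non-overlapping members numbered 5 to 7 with at least 3 arrays per group, where the shares of all genes at 5 and 7 were not counted. Without AZD1480 replicate 1 these members numbered 6, against 2.41% of all genes, and in the main fit 6, against 1.41%. Within slides, where 2 arrays face 2 and non-overlap is common (15% of all genes on slide 1, 17.3% on slide 2), they numbered 8. Sensors lower at an unadjusted limma p below 0.05 relative to Mavs numbered 3 to 7, against 6 in the main fit (1.72% of all genes). The count was 3 within slide 1 (2.75%) and 7 with array weights (2.48%). Relative to Tmem173 it was 1 to 5, against 2 in the main fit (0.693% of all genes). There it was 1 within slide 1 (1.96%), 4 with slide as a covariate (0.834%) and 4 with array weights (2.21%). Leaving out 1 array gave 5 to 7 relative to Mavs and 2 to 5 relative to Tmem173. Without AZD1480 replicate 1 the count was 5 relative to each, against 1.81% (Mavs) and 1.14% (Tmem173) of all genes. Shares for leaving out the other arrays were not counted. Genes called relative to Tmem173 were 31 within slide 1 and 0 otherwise, and genes called relative to Mavs were 0 to 1 when 1 array was left out (1 without AZD1480 replicate 1). The causes were not tested. With the replicate number as a block, 0 genes and 0 members were called, and 0 genes relative to either adaptor. Sensors lower at an unadjusted limma p below 0.05 relative to Mavs were then 7, against 6 in the main fit. The share of all genes with that block was not counted. Dim signal limits Ddx60.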
